A study of Sus scrofa with 2 samples.

Results

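Solute carriers are the membrane proteins that move sugars, amino acids, lactate, ions, metals and vitamins across the cell surface and the membranes of organelles. The carriers described here are the table entries whose Ensembl pig gene identifier has a symbol of an SLC or SLCO family, without the mitochondrial family SLC25A, and whose mean over the 2 libraries was at least 1 RPKM (reads set against gene length and library size). Of 254 such entries 99 reached that level, among 13191 features of all kinds that did. A further 124 lay above 0 but under it, and 31 were at 0 in both libraries. By substrate the 99 were 4 glucose carriers (SLC2A), 14 amino acid carriers (SLC1A, SLC3A, SLC7A, SLC38A and SLC43A), 3 carriers of the monocarboxylate family (SLC16A), 10 metal carriers (SLC30A and SLC39A) and 68 others. No SLC36A entry reached the level. SLC4A1AP, an adaptor protein with no transport function of its own, is among the others because its symbol fits the rule.

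The muscle was longissimus dorsi of the back and came from crossbred barrows (castrated male pigs) with Duroc sires and Yorkshire-Landrace dams. The study took 16 pigs of 79.0 ± 1.5 kg out of 8 litters. For 21 days 8 pigs lived at 22 °C (the control arm, CON) and 8 at 30 °C (the heat arm, H30), and no other treatment, genotype or age is given in the labels. There was 1 library per arm. The labels do not say whether it pools the RNA of several pigs.

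In muscle, glucose enters mainly through SLC2A4 (GLUT4), which insulin and contraction bring to the surface, and lactate leaves fast fibres through SLC16A3 (MCT4). Large neutral amino acids enter through light chains such as SLC7A8 that need the heavy chain SLC3A2, while SLC38A and SLC1A carriers use the sodium gradient that the sodium pump maintains. Zinc carriers of the SLC30A family move zinc out of the cytosol and those of the SLC39A family move it in.

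Library totals recovered from the RPKM values were 23608242 reads for control and 22863584 for heat, so that 1 read on a gene of 1 kb was worth 0.0424 and 0.0437 RPKM. The minimum numbers of reads behind a carrier had a median of 172 in the control and 175 in the heat library. The tissue was checked on skeletal muscle markers, of which 6 of 11 were matched, from NEB at 758 and 677 RPKM to ACTA1 at 68749 and 65219. Markers of other cells were present too. Summed over matched genes, adipocyte markers (4 of 8 matched) were at 25.4 RPKM in the control and 17.0 in the heat library, and fibroblast markers (6 of 8) at 489 and 440.1. Endothelial markers (5 of 8) were at 136 and 155, red blood cell markers (5 of 9) at 90.7 and 115, macrophage markers (6 of 10) at 30.0 and 32.1, and smooth muscle and pericyte markers (5 of 8), DES of muscle fibres included, at 2307 and 2681. Sums can rest on 1 gene, such as PECAM1 (111 and 127) or HBB (89.0 and 112). Of markers with a mean of at least 1 RPKM, those higher in the heat library were 4 of 5 endothelial and 2 of 2 red blood cell markers. For macrophages they were 2 of 6, for smooth muscle and pericytes 3 of 5, for adipocytes 1 of 4 and for fibroblasts 2 of 6. Of all features at that level 58.8% were higher in the heat library. No matched marker was at 0 in both libraries. In bulk tissue fewer cells of a type and less RNA per cell cannot be told apart, and the part of these other cells in the results below was not tested. With 1 library an arm nothing below was checked in replicates, and the effects of temperature cannot be told apart from those of the pigs or of the library.

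The carriers differed little between the 2 libraries as a set. Their median log2 ratio, log2((heat RPKM + 1)/(control RPKM + 1)), was 0.08, against 0.05 over all 13191 features, and 68 of 99 lay above 0 (68.7%, against 58.8% of all features). With both libraries centred on the median of all features, 59 of 99 lay above 0, where the median of all features is 0 by construction. Only SLC66A3 was at least 1.5-fold higher in the heat library (1 of 99, against 3.44% of all features and 1.24% of those with a symbol), and none was at least 1.5-fold lower (against 2.37% and 0.587%). With no replicates this fold is the only call that can be made, and the members' shares lie under the background. The members together took 0.127% of all RPKM in the control and 0.137% in the heat library.

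Counting error was small enough to separate the 2 libraries for about 1 carrier in 3. The 95% Clopper-Pearson interval of the heat over control RPKM ratio, from the minimum reads, lay above 1 for 23 carriers and below 1 for 8, while 68 held 1. Of the 23, SLC23A2, SLC45A4, SLC66A3 and SLC8B1 reached the level only through the heat library. Over the 92 members with at least 1 RPKM in both libraries, 19 lay above 1 and 8 below (20.7% and 8.70%, against 19.0% and 10.1% of the 12404 features with at least 1 RPKM in both). None of the 92 was past 1.5-fold by the log2 ratio, against 290 higher and 234 lower of those 12404 features. The 1 added to each RPKM in that ratio shrinks differences at low levels. By the plain RPKM ratio SLC18B1 (1.95), SLC9A7 (1.62), SLC33A1 (1.51) and SLC1A3 (0.633) were past 1.5-fold. The share of all features past it by the plain ratio was not counted. Over all 13191 features the shares were 19.6% above and 10.1% below, and for the carriers 23.2% and 8.08%. After centring, 19 carriers lay above and 12 below, against 13.7% and 14.5% of all features. The interval of SLC27A4, SLC38A3, SLC43A2 and SLC5A6 then held 1, and those of SLC1A5, SLC29A1, SLC37A4 and SLC41A1 lay below it. These intervals cover counting error only and say nothing of the spread between pigs.

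**Figure D1:**
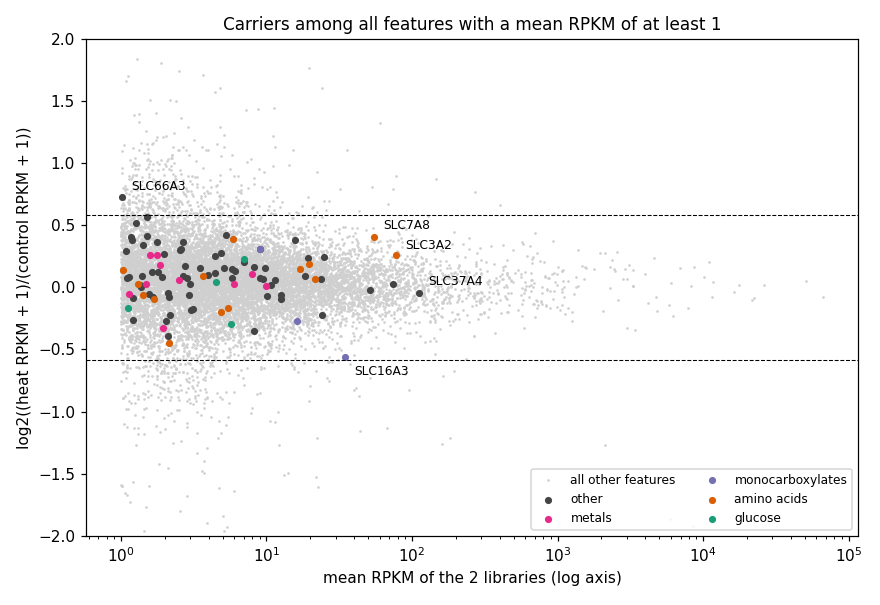
Mean RPKM (x, log axis) against the log2 ratio of heat to control with a pseudocount of 1 (y) for every feature with a mean RPKM of at least 1. Grey points are all other features, coloured points are the carriers by substrate, dashed lines mark 1.5-fold, and 12 features beyond 2 in size are not drawn. Of the carriers only SLC66A3 lies past a dashed line, and SLC16A3 is the carrier nearest to the lower one.

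Levels were concentrated in few carriers. The 10 highest took 54.0% of the members' RPKM in the control and 53.0% in the heat library, while 33 members had a mean between 1 and 2 RPKM and 25 between 2 and 5. RPKM is scaled to gene length, so levels are set side by side between genes here. The source of the gene lengths is not given and some carriers overlap other genes, so ranks by level are approximate. SLC37A4 (ENSSSCG00000015105), which carries glucose 6-phosphate into the endoplasmic reticulum, had the highest level of all, 114 RPKM in the control and 110.3 in the heat library. SLC44A2 (ENSSSCG00000013639), a choline transporter-like protein, stood at 73.8 and 75.2 RPKM. SLC6A8 (ENSSSCG00000012771), which brings creatine into the fibre, stood at 51.6 and 50.7 RPKM. In these 3 the libraries lay within counting error of each other as deposited, with ratios of 0.971 (interval 0.935 to 1.01), 1.02 (0.978 to 1.06) and 0.983 (0.907 to 1.07). After centring, the interval of SLC37A4 lay below 1, at a log2 ratio of -0.10.

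The glucose carriers were split. SLC2A4 (ENSSSCG00000023915), the insulin-responsive carrier GLUT4, stood at 6.34 RPKM in the control and, lower, at 4.99 in the heat library, a ratio of 0.787 (interval 0.648 to 0.955). SLC2A12 (ENSSSCG00000004172), or GLUT12, a second carrier that insulin can bring to the surface of muscle, lay the other way, at 6.40 and 7.66 RPKM. Its interval, from minimum reads of 94 and 109, held 1 (0.900 to 1.59). SLC2A4 and SLC2A12 thus had nearly the same level in the control library, and SLC2A12 the higher one in the heat library. SLC2A11, GLUT11, was at 4.41 and 4.59 RPKM, and SLC2A8, an intracellular glucose carrier, at 1.25 and 0.999. The intervals of both held 1 (0.827 to 1.30 and 0.530 to 1.20). The 4 members summed to 18.4 RPKM in the control and 18.2 in the heat library, with a median log2 ratio of -0.06. The sign of this median is not stable, since over all SLC2A entries above 0, with no filter, it was 0.0042. SLC2A1 and SLC2A3 had no matched entry and are not analysed here. GLUT4 is also made by adipocytes. Of their 4 measured markers CIDEC (7.56 and 3.48 RPKM), PLIN1 (10.1 and 6.64) and LIPE (6.77 and 5.84) were lower in the heat library. ADIG (1.02 and 1.05) was not. The part of adipocytes in the SLC2A4 value was not tested.

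Genes that move GLUT4 to the surface or trap glucose inside the cell had a median log2 ratio of 0.01 over 13 measured of 18 listed. Of the 13, 7 lay above 0 (58.8% of all features). The interval lay above 1 for 3 and below 1 for 3, against 19.6% and 10.1% of all features. SORT1, the sortilin of GLUT4 vesicles, was the highest, at 4.17 and 6.51 RPKM (log2 ratio 0.54). TRARG1, a protein of the same vesicles, was the lowest, at 2.21 and 0.415 RPKM (-1.18). It was the only gene of the list past 1.5-fold (1 of 13, against 2.37% of all features lower). TRARG1 reached the level only through the control library, so it had to be lower in the heat library. Its minimum reads were 33 and 6.

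Among the amino acid carriers, SLC3A2 and 2 of the light chains that work with it were higher in the heat library. SLC3A2 (ENSSSCG00000022404), the heavy chain that takes several light chains to the surface, stood at 71.0 RPKM in the control against 85.1 in the heat library, a ratio of 1.20 (interval 1.14 to 1.26). SLC7A8 (ENSSSCG00000002032), the light chain LAT2 for neutral amino acids, stood at 47.2 and 62.9 RPKM, a ratio of 1.33 (1.26 to 1.41). SLC7A7 (ENSSSCG00000002041), the light chain y+LAT1 that exchanges cationic for neutral amino acids, stood at 4.96 and 6.81 RPKM, a ratio of 1.37 (1.23 to 1.53). The heavy chain was thus the more abundant partner in both libraries, and the intervals of all 3 lay above 1 as deposited and after centring. SLC7A5 and SLC7A6, further light chains, had no matched entry and are not analysed here. SLC7A10, a light chain that adipocytes are known for, was at 1.78 and 1.60 RPKM with an interval that held 1 (0.638 to 1.26).

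Other carriers of neutral and cationic amino acids work without a heavy chain. SLC43A2, the uniporter LAT4, was at 18.2 RPKM in the control and 20.8 in the heat library, and SLC38A3, the glutamine carrier SNAT3, at 16.1 and 17.9. Their intervals lay just above 1 as deposited (1.04 to 1.27 and 1.02 to 1.22) and held 1 after centring. SLC7A2, the cationic amino acid carrier CAT2, was the third most abundant of the group at 21.1 and 22.1 RPKM, with a ratio of 1.05 (0.975 to 1.12). SLC38A2, the sodium-coupled carrier SNAT2, was at 3.51 and 3.81 RPKM, and SLC38A9, a lysosomal arginine sensor, at 1.28 and 1.32. For SLC38A9 the smallest whole pair of reads is 1 and 1, a minimum far under what such a level needs on any gene of usual length, so its interval is without use. SLC38A4 was at 1.48 and 1.38 RPKM and SLC1A4, a carrier of alanine, serine and cysteine, at 0.940 and 1.14, both with intervals that held 1.

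On the other side lay SLC1A3 and SLC38A10. SLC1A3 (ENSSSCG00000016841), a glutamate carrier known from glia, stood at 2.64 RPKM in the control against 1.67 in the heat library, a ratio of 0.633 (interval 0.467 to 0.855). It is the lowest of the group. SLC38A10 was at 5.32 and 4.50 RPKM, a ratio of 0.846 (0.752 to 0.951). SLC1A5, the glutamine carrier ASCT2, was at 5.83 and 5.09 RPKM with an interval that reached 1 as deposited (0.751 to 1.01). In all, 9 of 14 amino acid carriers lay above 0 (58.8% of all features), with a median log2 ratio of 0.08. The interval lay above 1 for 5 and below 1 for 2 as deposited (19.6% and 10.1% of all features), and above 1 for 3 and below 1 for 3 after centring (13.7% and 14.5%). Their summed RPKM was 201 in the control and 236 in the heat library, most of it from SLC3A2 and SLC7A8, and their share of all carrier RPKM was 22.1% and 24.7%.

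The machinery that senses amino acids and drives sodium-coupled uptake was read beside them. Of 24 listed genes of amino acid sensing 16 were measured, with a median log2 ratio of 0.03 and 9 above 0 (58.8% of all features). SESN1, a sestrin that restrains mTORC1, was the highest at 35.0 and 49.2 RPKM (0.48), and LAMTOR2, a subunit of the lysosomal Ragulator scaffold, the lowest at 16.8 and 13.4 (-0.30). Of 10 listed sodium pump genes 5 were measured, with a median of 0.13. Among these, ATP1B4, a muscle protein of the pump's beta subunit family, was the highest at 71.4 and 99.6 RPKM (0.47), while ATP1B2 was the lowest at 6.26 and 5.81 (-0.09). No gene of these lists was past 1.5-fold, against 3.44% of all features higher and 2.37% lower.

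**Figure D2:**
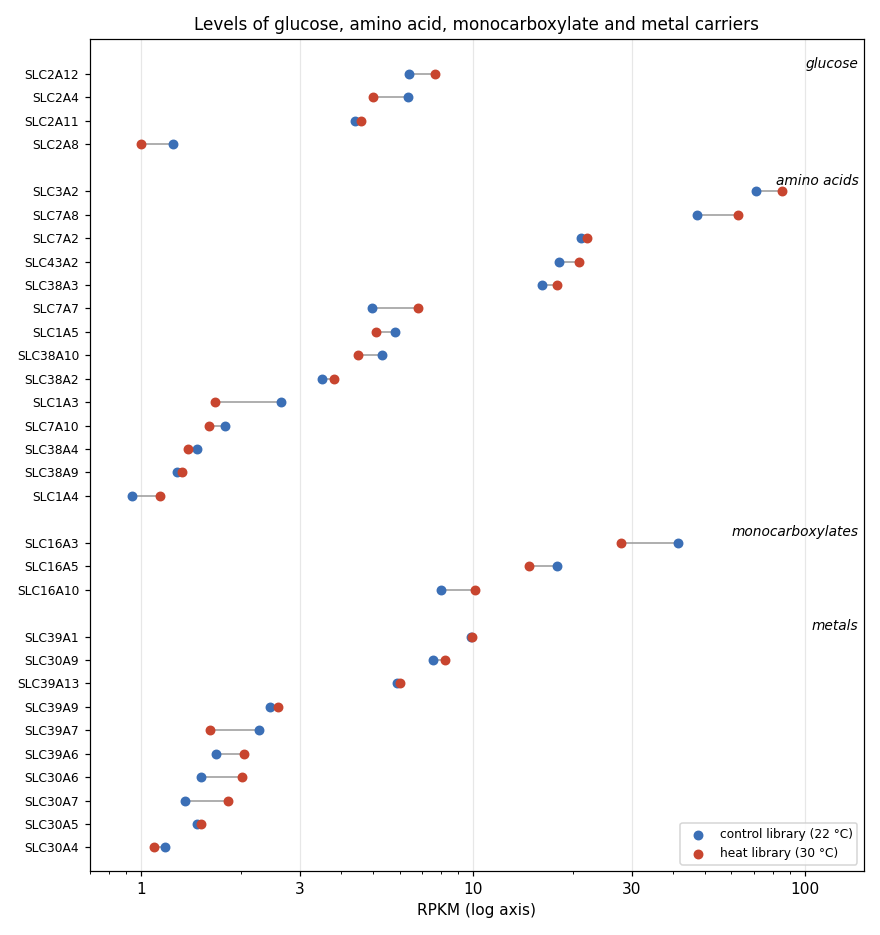
RPKM on a log axis (x) of the 31 carriers of glucose, amino acids, monocarboxylates and metals (y, ordered by mean level within a group). Blue points are the control library and red points the heat library, 1 library each. SLC3A2 and SLC7A8 are the most abundant, both with the red point to the right, and SLC16A3 and SLC16A5 have it to the left.

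The monocarboxylate family had 3 members and a median log2 ratio of -0.27. SLC16A3 (ENSSSCG00000024018), the lactate exporter MCT4 of glycolytic fibres, stood at 41.4 RPKM in the control but at 27.8 in the heat library, a ratio of 0.672 (interval 0.628 to 0.719). It had the lowest log2 ratio of all 99 carriers, -0.56, just inside 1.5-fold, and passed it when the libraries were centred (-0.61). SLC16A5 (ENSSSCG00000017215), MCT6, lay the same way at 17.9 and 14.7 RPKM, a ratio of 0.818 (0.763 to 0.877). MCT6 is not taken here as a lactate carrier. SLC16A10 (ENSSSCG00000004419), which carries aromatic amino acids rather than lactate, lay the other way at 7.97 and 10.1 RPKM, a ratio of 1.27 (1.10 to 1.46). The 3 summed to 67.3 RPKM in the control and 52.6 in the heat library. SLC16A1, the carrier MCT1 of oxidative fibres, had no matched entry and is not analysed here. SLC16A13 (0.889 and 0.355 RPKM), SLC16A14 (1.01 and 0.418) and SLC16A9 (0.545 and 0.634) were measured under the level set. Over all SLC16A entries above 0 the median was -0.027.

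Genes of lactate and pH around MCT4 had a median log2 ratio of -0.11 over 6 measured of 9 listed. Of the 6, 1 lay above 0 (58.8% of all features). LDHD, the D-lactate dehydrogenase, was the lowest at 20.3 and 17.3 RPKM (-0.22), and CA3, the carbonic anhydrase of muscle, the highest at 3303 and 3325 (0.01). LDHA, the most abundant of the list, was at 5124 and 4489 RPKM (-0.19, interval 0.849 to 0.904). Intervals lay above 1 for 0 and below 1 for 2, against 19.6% and 10.1% of all features. None of the 6 was past 1.5-fold, against 3.44% of all features higher and 2.37% lower. BSG, the chaperone that takes MCT4 to the surface, had no matched entry. Of 10 genes listed for carrier subunits and chaperones 4 were measured, with 2 above 0 (58.8% of all features) and 2 below. GPAA1, listed though it is not a subunit or chaperone of a solute carrier, was the lowest at 6.98 and 6.45 RPKM (-0.10). ATP1B1, the sodium pump beta subunit, was the highest at 53.7 and 63.2 (0.23). NPTN was at 15.1 and 16.4 RPKM (interval 1.01 to 1.17). EMB was under the level set, at 0.186 and 0.420.

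**Figure D3:**
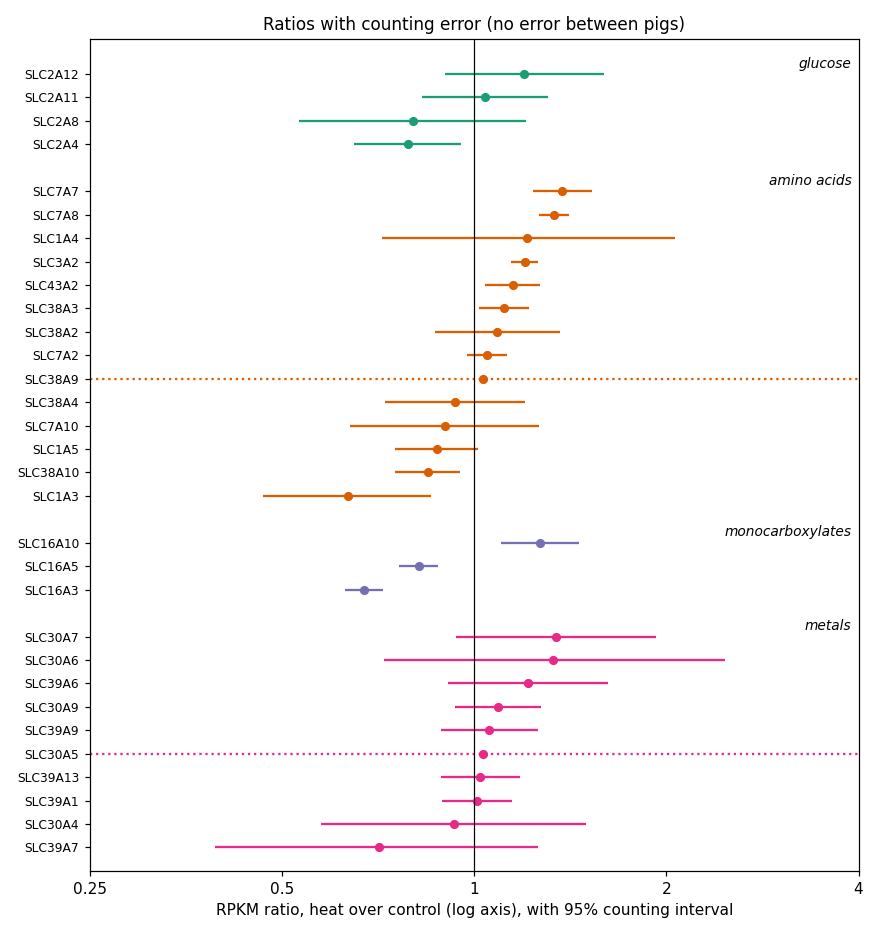
Heat over control RPKM ratio on a log axis (x) for the same 31 carriers (y), with 95% counting intervals as lines. Dotted lines run past the axis. They belong to SLC38A9 and SLC30A5, whose recovered reads are a minimum of 1 and 1. The intervals of SLC7A8, SLC7A7 and SLC3A2 lie above 1, those of SLC16A3, SLC16A5 and SLC2A4 lie below 1, and all 10 metal carriers hold 1.

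The counting intervals of the metal carriers did not separate the libraries. All 10 held 1, as did those of 9222 of all 13191 features. The intervals rest on minimum reads, with a median of 74.5 in the control library, and can be too wide for that reason. The median log2 ratio was 0.04, with 8 above 0 (58.8% of all features). The most abundant was SLC39A1, a zinc importer of the cell surface, at 9.83 RPKM in the control and 9.93 in the heat library. SLC39A7, which releases zinc from the endoplasmic reticulum, had the lowest ratio, at 2.26 and 1.61 RPKM (0.710, interval 0.393 to 1.26). SLC30A4, which loads zinc into vesicles, was at 1.18 and 1.09 RPKM. The Golgi zinc loaders SLC30A6 (1.51 and 2.00 RPKM, interval 0.723 to 2.47) and SLC30A7 (1.36 and 1.82, 0.936 to 1.93) had the highest ratios, and the importer SLC39A6 (1.68 and 2.03) came next. SLC39A8 was under the level set, at 0.889 and 0.670 RPKM. Of 17 listed genes of zinc and iron handling 6 were measured, with a median of 0.14 and intervals above 1 for 4 and below 1 for 1, against 19.6% and 10.1% of all features. The ferritin chain FTL was the highest (506 and 644 RPKM, 0.35), though pseudogenes could share its reads, and ACO1, which doubles as an iron-responsive RNA-binding protein, the lowest (7.99 and 6.51, -0.26). SLC40A1, the iron exporter ferroportin, was listed at 0 in both libraries.

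The 68 carriers of other substrates had a median log2 ratio of 0.09, with 48 above 0 (58.8% of all features), and ranged from -0.39 to 0.73. The interval lay above 1 for 17 and below 1 for 3 as deposited (19.6% and 10.1% of all features), and above 1 for 15 and below 1 for 6 after centring (13.7% and 14.5%). Those below 1 were SLC26A6, SLC4A4 and SLC35A4, joined after centring by SLC29A1, SLC37A4 and SLC41A1.

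Acid-base and ion carriers lay on both sides. SLC26A6, an exchanger of chloride for other anions, was at 9.34 RPKM in the control against 7.10 in the heat library, a ratio of 0.760 (interval 0.671 to 0.860). The sodium bicarbonate carrier SLC4A4 was at 2.32 and 1.76 RPKM (0.758, 0.653 to 0.878), while its relative SLC4A7 was at 2.22 and 3.14 (1.41, 1.23 to 1.63). These 2 bicarbonate importers had similar levels in the control library and differed in opposite directions. SLC12A2 (ENSSSCG00000014255), the sodium, potassium and chloride carrier NKCC1 of cell volume, was the most abundant ion carrier at 22.8 and 27.3 RPKM (1.19, 1.12 to 1.27). Of the organellar proton exchangers, SLC9A7 of the Golgi was at 1.16 and 1.88 (1.62, 1.13 to 2.35) and SLC9A8 at 2.53 and 1.70. The interval of SLC9A8 held 1 (0.307 to 1.42) but rests on minimum reads of 20 and 13, few for that level. Among exchangers of sodium for calcium, SLC8B1 (ENSSSCG00000009880), which sits in the inner mitochondrial membrane, stood at 0.866 and 1.68 RPKM (1.94, 1.39 to 2.72), and it reached the level only through the heat library. SLC8A2, just under the level, was at 1.04 and 0.802 RPKM, with an interval that held 1 (0.113 to 4.58). SLC8A3, of the muscle cell surface, was at 3.92 and 4.87 (1.24, 1.10 to 1.40). The 15 members of these ion families had a median log2 ratio of 0.12, with 10 above 0 (58.8% of all features). Intervals lay above 1 for 5 and below 1 for 2 (19.6% and 10.1% of all features).

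SLC66A3 and SLC18B1 had the highest log2 ratios of all 99 carriers, followed by SLC8B1 and the lysosomal SLC15A4. SLC66A3 (ENSSSCG00000008631), a PQ-loop protein, stood at 0.524 RPKM in the control and 1.52 in the heat library, on at least 21 and 59 reads, a ratio of 2.90 (interval 1.74 to 5.03) and a log2 ratio of 0.73. SLC18B1 (ENSSSCG00000004178), a vesicular polyamine carrier, stood at 1.03 and 2.00 RPKM (1.95, 1.34 to 2.87; log2 ratio 0.57, just inside 1.5-fold). SLC15A4 (ENSSSCG00000025820), which exports histidine and small peptides from lysosomes, stood at 4.39 and 6.21 RPKM (1.42, 1.22 to 1.64). SLC66A3 is also the carrier nearest to the level threshold. It and 5 more (SLC1A4, SLC23A2, SLC45A4, SLC8B1 and SLC9A5) lay under 1 RPKM in the control library and reached a mean of 1 through the heat library, so they had to be higher there, and SLC2A8 reached it through the control library. Over the 92 members with at least 1 RPKM in both libraries the median log2 ratio was 0.08. Just above the threshold, after SLC66A3, was SLC1A4, and just below it lay SLC8A2 and SLC38A6 (0.910 and 0.882).

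The families SLC29 and SLC35, grouped here as carriers of nucleosides and nucleotide sugars, were the largest family with 17 members. The grouping is by SLC number, so a member need not carry a nucleotide sugar for the glycosylation of the Golgi. Their median log2 ratio was 0.08, with 12 above 0 (58.8% of all features). Intervals lay above 1 for 3 (SLC35A5, SLC35F5 and SLC35G1) and below 1 for 1, against 19.6% and 10.1% of all features. SLC35A4 was the most abundant of them at 26.1 RPKM in the control and 22.2 in the heat library (0.850, interval 0.764 to 0.946). The nucleoside carrier SLC29A1 was at 12.9 and 12.3 RPKM with an interval that held 1 as deposited (0.879 to 1.04). The named sugar nucleotide carriers SLC35A1 for CMP-sialic acid (7.65 and 8.72), SLC35A2 for UDP-galactose (2.18 and 2.91) and SLC35A3 for UDP-N-acetylglucosamine (4.29 and 5.41) had intervals that held 1.

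Among carriers of vitamins, lipids and other substrates, SLC23A2, the sodium-coupled carrier of ascorbate, was at 0.864 RPKM in the control and 1.46 in the heat library (1.69, interval 1.33 to 2.16), and SLC5A6, the carrier of biotin and pantothenate, at 6.49 and 7.61 (1.17, 1.03 to 1.34). The fatty acid carrier SLC27A1 of muscle was at 9.19 and 9.66 RPKM and its relative SLC27A4 at 1.69 and 2.24, and of these only the interval of SLC27A4 lay above 1 (1.04 to 1.69), which it no longer did after centring. SLC5A4, a sodium-coupled relative of the intestinal glucose carriers, was at 1.41 and 1.01 RPKM with an interval that held 1 (0.481 to 1.05). SLC41A3, of the magnesium carrier family, was at 22.9 and 24.1 RPKM with an interval that held 1 (0.945 to 1.17). Beside the creatine carrier SLC6A8, 2 of 5 listed creatine genes were measured, and both were lower in the heat library. Of all features 58.8% lay above 0. The intervals of both genes lay below 1, as did those of 10.1% of all features. GAMT, which makes creatine, was at 146 and 121 RPKM (-0.27) and CKMT2, the creatine kinase of muscle mitochondria, at 485 and 423 (-0.20). SLC6A6, the taurine carrier, and SLC7A1, a cationic amino acid carrier, were under the level set at 0.497 and 0.117 RPKM and at 0.579 and 0.306. SLC4A1, the anion exchanger of red blood cells, was at 0.0188 RPKM in the control and listed at 0 in the heat library.

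**Figure D4:**
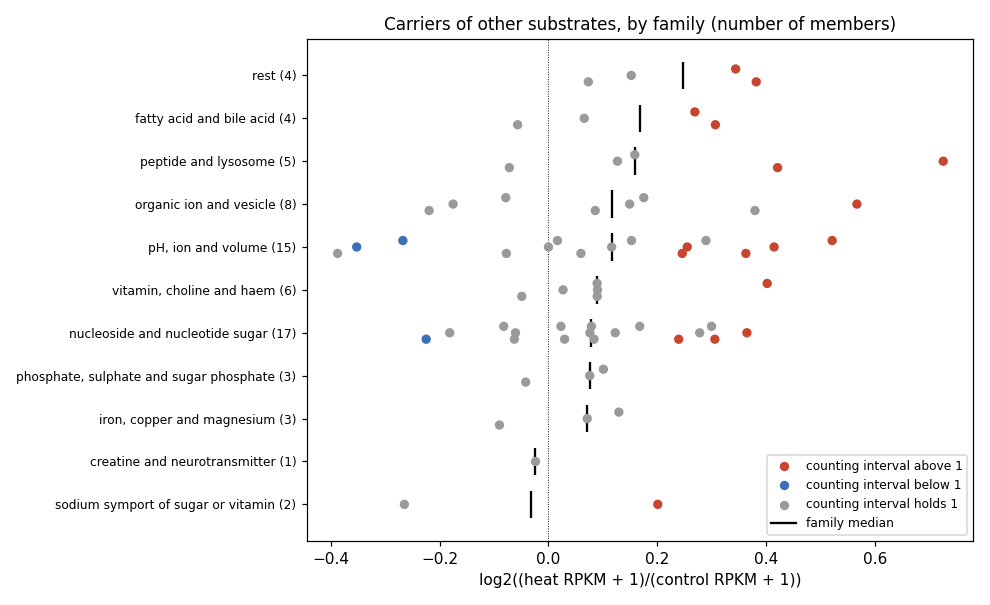
Log2 ratio of heat to control with a pseudocount of 1 (x) for the 68 carriers of other substrates, by family (y, number of members in brackets). Points are genes, coloured by whether the 95% counting interval lies above 1, below 1 or holds 1, and black bars are family medians. Points of most families lie on both sides of 0, and the blue points are SLC26A6, SLC4A4 and SLC35A4.

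Mitochondrial carriers of the SLC25A family, set beside these, had a median log2 ratio of 0.07 over 26 genes, with 14 above 0 (58.8% of all features). None of these 26 was past 1.5-fold, against 3.44% of all features higher and 2.37% lower. Their intervals lay above 1 for 6 and below 1 for 4 (19.6% and 10.1% of all features). Reads of neighbouring genes can touch some values, since the kit is not described as marking strand. In the RefSeq annotation of the assembly Sscrofa11.1, 19 of the 95 carriers with a matching gene overlap another protein-coding gene, SLC7A7 with OXA1L, SLC12A2 with an unnamed gene, SLC2A12 with TBPL1 and SLC9A7 with CHST7 among them. The authors' build is another, so no positions are given.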

How the data were processed

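Messenger RNA of longissimus dorsi was measured in 2 libraries, 1 per arm. The authors deposited 1 RPKM value per gene and library. Per the submitters' processing notes the tools were Bowtie, TopHat 1.4.0 and Cufflinks 1.3.0 on the build Sscrofa10.2, and what each was used for is not stated. The counter, the handling of reads with several matches and the source of gene lengths are not given in the sources used here. Of 27987 entries 11374 matched a symbol in a table of pig gene names. Members, lists and rules were chosen with earlier results of these data known. No sequence is shown.

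Libraries were compared by log2((heat RPKM + 1)/(control RPKM + 1)) for entries with a mean RPKM of at least 1, called at 1.5-fold. The pseudocount of 1 shrinks the ratio of low genes. A single library an arm allows no test across samples. Reads were recovered from the fact that a gene's 2 RPKM values stand to each other as 2 whole numbers of reads, up to the ratio of library totals (1.03, control over heat). Of 13134 entries with a mean under 5, 99.9% gave a whole pair of at most 1000 reads, against 0.152% with a wrong factor. The library totals are those under which most gene lengths were whole numbers of bp, to 0.01 (75.8% of 1500 genes, 38.5% at double the totals). Each pair was raised to its smallest multiple, up to 12, that gave a whole length, and remains a minimum, so intervals err on the wide side. Without molecular identifiers, PCR copies count as separate reads. The steps were tested on simulated reads. Python 3.11.15, numpy 2.4.6, pandas 2.3.3 and scipy 1.17.1 were used.

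The genes named are all carriers past 1.5-fold, the 3 highest and 3 lowest log2 ratios per substrate group (5 and 5 among the others), the 10 highest levels, a list of 31 textbook carriers (14 members, 5 under the level, 12 with no matched entry), and the highest and lowest of each partner list. Further carriers and partner genes were named after their values were seen. Some carriers and marker genes are not reported here. Other pseudocounts, filters, folds and scalings were tried.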

Additional observations from a re-analysis of the deposited data

How the results depend on the processing

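The counts of carriers past 1.5-fold, 1 higher and 0 lower in the heat library, became 6 higher and 1 lower with a pseudocount of 0.1, 0 higher with a pseudocount of 5, with a mean RPKM of at least 5 (41 members) or with a fold of 2, and 2 higher when rescaled without the 10 highest features. Centring on the median of all features, or a trimmed mean, gave 1 lower, SLC16A3. The median of the glucose carriers turned to 0.0042 with no filter, where that of the monocarboxylate family was -0.027, and the median of the amino acid carriers was 0.19 with a mean RPKM of at least 5. In both cases the set of genes differs. The median of all carriers ran from 0.03 (no filter) to 0.12 (pseudocount 0.1). Without the 10 highest features in the denominator the carriers took 0.200% of summed RPKM in the control and 0.216% in the heat library. Of 40 named carriers 34 kept 1 side of 0 under each pseudocount and scaling. Those that did not include SLC2A11, SLC38A9, SLC39A1, SLC44A2 and SLC6A8. Counting intervals under other scalings were added after seeing the data. No paired analysis was possible because there is 1 library in each arm. Depth limits low carriers most, and recovered reads of SLC38A9, SLC30A5 and SLCO3A1 are minima too small for a useful interval. Minimum reads were also few for the level of other carriers, such as SLC9A8 (20 and 13), SLC39A7 (32 and 22), SLC30A6 (21 and 27) and SLC35A1 (58 and 64). An interval that held 1 in such carriers can be too wide for that reason.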
